A study of Mus musculus with 10 samples.

Results

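The Wnt genes described here are 42 protein-coding genes of the 54532 genes in the deposited lung table. They were taken by name: every Wnt, Fzd, Sfrp and Dkk gene with a number, together with Axin2, Lef1, Lrp5, Lrp6 and Wif1. The set holds 19 Wnt ligands, 10 Frizzled receptors, 2 co-receptors, 9 secreted antagonists, and Axin2 and Lef1. Whole-lung mRNA was sequenced from 10 wild-type C57BL/6J mice at postnatal day 30. In 5 mice a needle puncture between the abdominal aorta and the inferior vena cava at postnatal day 7 had made an aortocaval fistula, which raises the blood flow through the lung (increased pulmonary flow, IPF). The 5 sham mice had the same abdominal operation at the same age, without the puncture. The comparison asks how the Wnt genes of the lung differ after raised flow during alveolar growth.

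Wnt ligands are lipid-modified proteins that are secreted and bind a Frizzled receptor. With the co-receptors Lrp5 or Lrp6 they stop the breakdown of β-catenin, which then enters the nucleus and works with TCF/LEF factors on target genes such as Axin2, while other ligands such as Wnt5a signal largely without β-catenin. Sfrp proteins and Wif1 bind the ligands themselves, and Dkk proteins act mainly on the co-receptors. In the lung the pathway is known for its part in the specification of the early lung, in the growth of the mesenchyme and smooth muscle, and in the renewal of alveolar type 2 cells.

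Levels are FPKM values, fragments per kilobase of gene length scaled to the depth of the library, which are per length and can be set side by side between genes. Between 15483046 and 19026843 reads per sample lay on genes. Several features of the libraries moved with the groups or set 1 library apart. Xist was between 26.8 and 43.2 FPKM in the IPF samples and at most 0.0767 FPKM in the sham samples, while Ddx3y of the Y chromosome had 0 reads in all 5 IPF samples, so the operation and the sex of the mice cannot be told apart here. The summed level of 13 clock genes was 86.3 to 159 FPKM in the IPF and 289 to 342 FPKM in the sham samples, and the part of the clock in the results was not tested. Sham replicate 1 had 25486 genes above 0, against 22475 to 23575 in the others. IPF replicate 5 held the highest summed level of 7 neutrophil genes (301 FPKM, the others 15.2 to 74.2 FPKM) and of clock genes within its group (159 FPKM, the other IPF samples 86.3 to 102 FPKM). A lower level in whole lung can mean fewer cells of a type or less RNA per cell, and these cannot be told apart.

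Of the 42 genes, 31 had a mean of at least 0.1 FPKM and were tested with the rest of the table, 20448 genes in all. Wnt2 and Fzd2 rose and Fzd4 fell in the IPF lungs, and the other 28 genes did not reach an adjusted p under 0.05 (limma on log2(FPKM + 0.1), Benjamini-Hochberg adjustment). These 3 calls are 9.68% of the 31 genes, where 5.85% of all genes tested were called, a difference of about 1 call over 31 genes. In the higher direction 2 of 31 were called (3.71% of all genes) and in the lower direction 1 of 31 (2.14% of all genes). None of the 31 also had an absolute log2 fold change above 1, the limit used by the study, which 1.14% of all genes passed. By limma 9 of the 31 had an unadjusted p under 0.05, as did 19.5% of all genes tested, and voom on the recovered reads also gave 0 genes past both limits. The median log2 fold change of the 31 genes was 0.06, beside 0.0016 over all genes tested, with 17 values above and 14 below 0. In 1 of the 31 genes, Wnt2, the 5 IPF and 5 sham samples did not overlap, while this held for 7.29% of all genes tested.

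**Figure D1:**
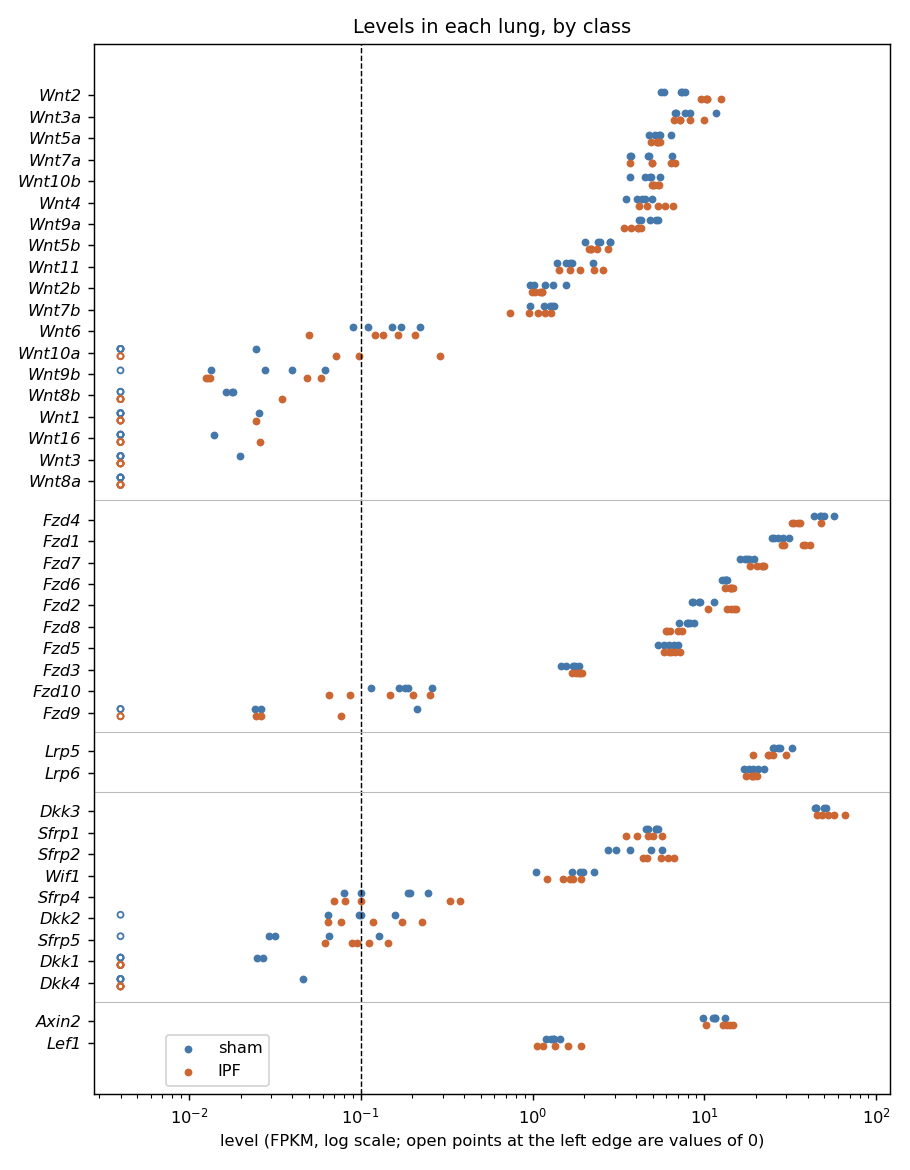
Level of each of the 42 Wnt genes in every lung, by class, in FPKM on a log scale, with 1 point per sample (sham in blue, IPF in orange) and the 0.1 FPKM limit of the test as a dashed line. Dkk3 and Fzd4 lie at the top with means of 50.3 and 42.9 FPKM, and 11 genes have a mean under 0.1 FPKM.

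Wnt2 (ENSMUSG00000010797, chromosome 6 of GRCm38, 17988940 to 18030585, minus strand) had the highest mean of the ligands. It is a ligand of the lung mesenchyme that acts with Wnt2b in the specification of the lung. Its level was 12.5, 10.4, 9.57, 10.2 and 10.3 FPKM in IPF replicates 1 to 5 and 5.78, 7.37, 7.73, 5.59 and 7.33 FPKM in sham replicates 1 to 5. Every IPF sample thus lay above every sham sample, with 210 to 481 reads behind each value. The means were 10.6 ± 1.12 and 6.76 ± 0.995 FPKM (SD, n = 5 per group), a 1.57-fold difference. On the log2 scale Wnt2 rose by 0.65 (standard error 0.11, 95% interval 0.41 to 0.88, limma adjusted p = 0.00597; two-sided exact permutation p = 0.00794, the smallest that 5 against 5 samples allow). Leaving out any 1 of the 10 samples gave an adjusted p from 0.00769 to 0.0174. Wnt2 made up 19.3% to 23.1% of the summed ligand level in the IPF samples and 13.2% to 16.8% in the sham samples. The sequence before the Wnt2 start is shown because Wnt2 was the ligand that changed, and it is credited to RefSeq on GRCm38.p6, chr6:18030586-18030695, minus strand, 110 bases upstream of the start of the gene in the deposited table, 5′ to 3′.
Wnt2: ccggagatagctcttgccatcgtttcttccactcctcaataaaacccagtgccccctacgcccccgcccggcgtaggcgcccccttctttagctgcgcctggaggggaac
It has no capitals because neither motif searched, CTTTGA or CACGTG, lies in it on either strand.

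Wnt3a, a ligand known for strong β-catenin signaling, had nearly the same mean level as Wnt2. It was at 9.94, 8.30, 7.22, 7.21 and 6.65 FPKM in IPF replicates 1 to 5 and at 6.77, 8.30, 7.69, 6.83 and 11.7 FPKM in sham replicates 1 to 5. The groups overlapped through most of their range (log2 fold change -0.05, 95% interval -0.39 to 0.28, limma adjusted p = 0.894). Wnt5a, the main ligand of signaling without β-catenin in lung mesenchyme, was at 5.29, 5.55, 5.33, 5.38 and 4.87 FPKM in the IPF and 5.54, 4.75, 5.18, 5.45 and 6.36 FPKM in the sham samples. Its log2 fold change of -0.04 had an interval of -0.22 to 0.14 (limma adjusted p = 0.836), so a difference as large as that of Wnt2 lay outside the interval.
Wnt9a and Wnt4 came next to Wnt2 in unadjusted p. Wnt9a was at 3.93 ± 0.361 FPKM in the IPF and 4.78 ± 0.540 FPKM in the sham group (SD, n = 5 per group), with 4 of 5 IPF samples below all sham samples (log2 fold change -0.28, limma adjusted p = 0.130). Wnt4 was at 5.34 ± 0.979 against 4.27 ± 0.544 FPKM (SD over 5 mice each; log2 fold change 0.31, limma adjusted p = 0.226).
Wnt7a had 5.35 ± 1.24 against 4.66 ± 1.14 FPKM and Wnt10b 5.18 ± 0.211 against 4.70 ± 0.662 FPKM in the IPF and sham groups (SD, n = 5 per group). Wnt7b, a ligand of the lung epithelium, was lower in level at 1.04 ± 0.210 against 1.21 ± 0.149 FPKM (SD, n = 5 per group). Their log2 fold changes were 0.19, 0.15 and -0.20, and limma gave adjusted p from 0.433 to 0.623. Wnt5b (-0.10), Wnt11 (0.17), Wnt2b (-0.14) and Wnt6 (-0.10) also did not pass, with group means between 0.135 and 2.50 FPKM. Wnt5b overlaps Fbxl14 on the opposite strand, which was at 16.0 FPKM, so its reads are uncertain where strand was not used in counting.
The other 7 ligands had a mean under 0.1 FPKM and were not tested. Wnt1, Wnt3, Wnt8a, Wnt8b and Wnt16 had at most 2 reads in any sample, under a floor of 3 reads, and Wnt9b had 0 to 5 reads. Wnt10a had 3, 4, 0, 13 and 0 reads in IPF replicates 1 to 5, and 1 read in sham replicate 1 with 0 in the other sham samples.

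Of the 9 Frizzled receptors tested 2 were called, in opposite directions, beside 5.85% of all genes tested. No receptor divided the groups without overlap, as 7.29% of all genes tested did. Counts over 9 genes are too small to set the class apart. Fzd2 (ENSMUSG00000050288, chromosome 11, 102604396 to 102608058) is a receptor of mesenchymal cells that can bind Wnt5a. It was at 15.4, 14.3, 14.8, 13.5 and 10.5 FPKM in IPF replicates 1 to 5 and at 8.60, 9.41, 8.45, 9.28 and 11.3 FPKM in sham replicates 1 to 5. Of the IPF samples, 4 of 5 lay above all sham samples, and IPF replicate 5 lay below sham replicate 5. The means of Fzd2 were 13.7 ± 1.90 FPKM (IPF) and 9.42 ± 1.16 FPKM (sham) (SD, n = 5 per group). On the log2 scale it rose by 0.53 (standard error 0.11, 95% interval 0.29 to 0.78, limma adjusted p = 0.0176; two-sided exact permutation p = 0.0159). Over the fits with 1 sample fewer, its adjusted p ran from 0.00200 (without IPF replicate 5) to 0.0486 (without sham replicate 3). With all samples and the replicate number as a block, limma gave Fzd2 an adjusted p of 0.0757, above the limit.

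Fzd4 (ENSMUSG00000049791, chromosome 7, 89404355 to 89413134) is the receptor that endothelial cells use for Norrin and for Wnt ligands, and it had the highest mean of the receptors. Its level was 36.2, 32.4, 33.4, 35.2 and 47.8 FPKM in IPF replicates 1 to 5 and 56.6, 47.2, 49.4, 43.3 and 47.9 FPKM in sham replicates 1 to 5. IPF replicate 5 stood at the sham level and the 4 other IPF samples lay below all sham samples. The means of Fzd4 were 37.0 ± 6.20 FPKM (IPF) and 48.9 ± 4.86 FPKM (sham) (SD, n = 5 per group). It fell, with a log2 fold change of -0.41 (standard error 0.11, 95% interval -0.64 to -0.18, limma adjusted p = 0.0467; two-sided exact permutation p = 0.0238). This call is close to the limit: without IPF replicate 5 the adjusted p was 0.00293, and without any other single sample it rose past 0.05, to between 0.0519 and 0.112.
The sequences before the starts of Fzd4, which fell, and Fzd1, the next receptor by level, are shown 5′ to 3′ from RefSeq on GRCm38.p6. Fzd4 is chr7:89404116-89404354 on the plus strand (239 bases), Fzd1 is chr5:4758217-4758466 on the minus strand (250 bases), and the capitals mark a TCAAAG, the reverse complement of the core CTTTGA of the TCF/LEF site, that starts 242 bases before the RefSeq start of Fzd1.
Fzd4: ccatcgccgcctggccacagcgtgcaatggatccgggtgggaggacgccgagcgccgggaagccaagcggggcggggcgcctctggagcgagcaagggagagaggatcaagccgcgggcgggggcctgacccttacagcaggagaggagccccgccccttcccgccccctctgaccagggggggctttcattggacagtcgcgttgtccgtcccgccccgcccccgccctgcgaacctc
Fzd1: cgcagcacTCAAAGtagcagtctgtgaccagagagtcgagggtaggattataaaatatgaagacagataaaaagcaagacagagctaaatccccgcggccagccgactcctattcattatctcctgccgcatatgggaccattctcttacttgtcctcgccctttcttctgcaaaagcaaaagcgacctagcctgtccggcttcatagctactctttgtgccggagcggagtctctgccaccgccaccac

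Fzd1 was at 41.4, 38.4, 29.2, 37.5 and 28.5 FPKM in IPF replicates 1 to 5 and at 28.8, 24.6, 25.3, 26.7 and 31.2 FPKM in sham replicates 1 to 5. IPF replicates 1, 2 and 4 lay above all sham samples, and replicates 3 and 5 lay within the sham range. The means were 35.0 ± 5.81 and 27.3 ± 2.69 FPKM (SD over 5 mice each; log2 fold change 0.35, 95% interval 0.10 to 0.59, limma adjusted p = 0.110; two-sided exact permutation p = 0.0476). With IPF replicate 5 left out, Fzd1 had a log2 fold change of 0.41 and a limma adjusted p of 0.0412.
The order of the leading receptors differed between samples. Fzd4 was above Fzd1 in all 5 sham samples, by 1.53-fold to 1.97-fold, while in 3 of 5 IPF samples Fzd1 was above Fzd4. The ratio of Fzd4 to Fzd1 was 0.874, 0.845, 1.14, 0.938 and 1.68 in IPF replicates 1 to 5, where only IPF replicate 5 reached the sham range. This ratio was chosen after the values were seen and was not tested. The summed Frizzled level was 126 to 144 FPKM in either group, and Fzd4 made up 24.3% to 34.4% of it in the IPF and 34.5% to 39.2% in the sham samples.

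Fzd7 was at 20.9 ± 1.55 FPKM in the IPF and 17.8 ± 1.20 FPKM in the sham group (SD, n = 5 per group), and 4 of 5 IPF values exceeded every sham value (log2 fold change 0.24, 95% interval 0.09 to 0.38, limma adjusted p = 0.0683). Fzd8 was at 6.58 ± 0.638 against 7.98 ± 0.599 FPKM (SD, n = 5 per group), with 4 of 5 IPF samples below all sham samples (log2 fold change -0.28, 95% interval -0.45 to -0.10, limma adjusted p = 0.0713). Each passed 0.05 when particular libraries were left out. For Fzd7 the limma adjusted p was 0.0308 without IPF replicate 3 and 0.0456 without sham replicate 1, and for Fzd8 it was 0.0293 without IPF replicate 5. Fzd6, a receptor of planar cell polarity, spread little, from 12.7 to 14.7 FPKM over all 10 samples. In it, too, 4 of 5 IPF samples lay above all sham samples, by a small difference. Its log2 fold change was 0.09 (limma adjusted p = 0.329; two-sided exact permutation p = 0.0317). Fzd5 (0.06), Fzd3 (0.13) and Fzd10 (-0.21) did not pass, and Fzd9 had 0 to 8 reads and was not tested.

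**Figure D2:**
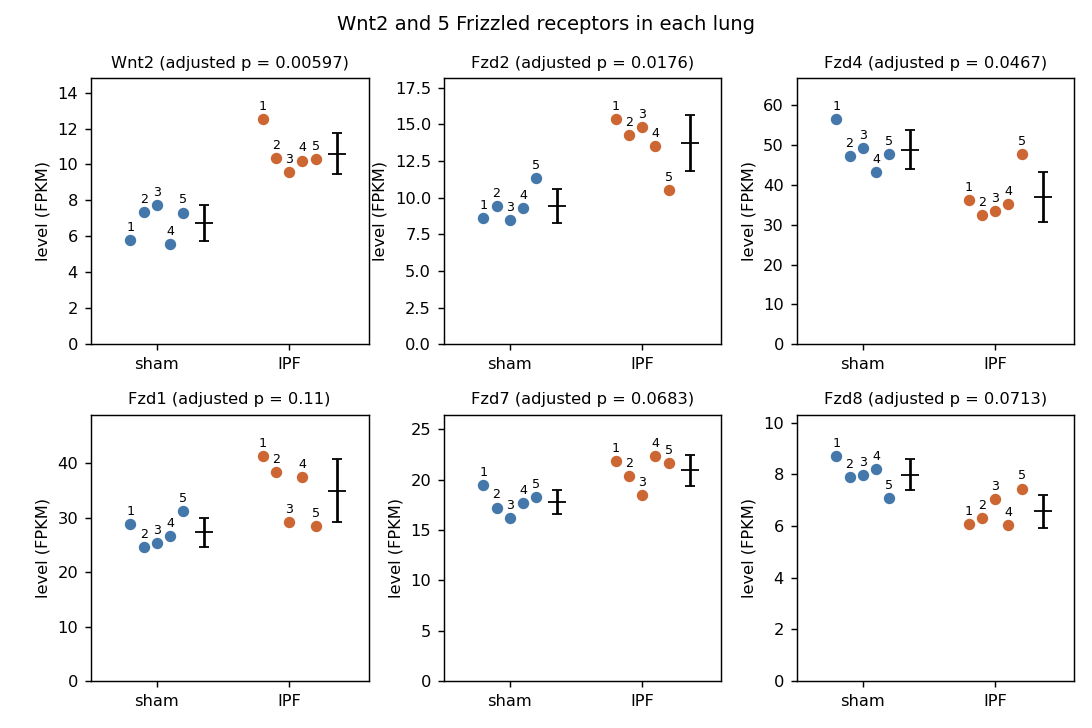
Level of Wnt2 and of the 5 Frizzled receptors with the smallest p in each lung, in FPKM, with replicate numbers above the points and the mean and SD of each group as a black bar (n = 5 each). Wnt2 alone separates the groups without overlap, and IPF replicate 5 lies within the sham range for Fzd4, Fzd2, Fzd1 and Fzd8.

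**Figure D3:**
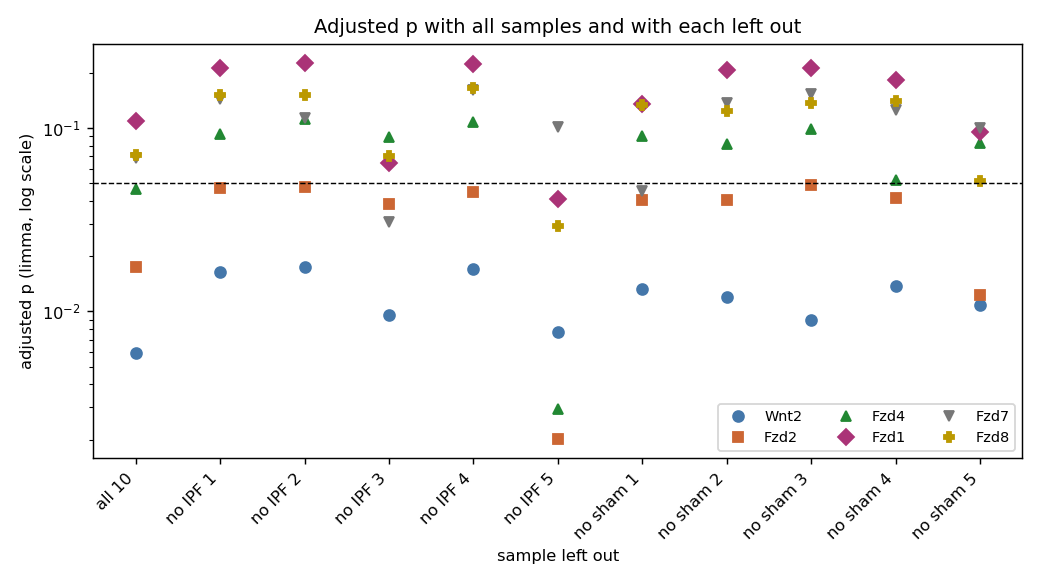
Adjusted p from limma (log scale) for Wnt2 and the same 5 receptors with all 10 samples and with each sample left out, with 0.05 as a dashed line. Wnt2 and Fzd2 stay below the line throughout, while Fzd4 is below it with all samples and without IPF replicate 5 and above it in the 9 other fits.

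The co-receptors did not pass the test. Lrp5, which pairs with Fzd4 in Norrin signaling, was at 25.3, 19.2, 23.6, 23.9 and 29.8 FPKM in IPF replicates 1 to 5 and at 32.6, 25.1, 27.6, 25.3 and 26.7 FPKM in sham replicates 1 to 5. Its log2 fold change was -0.18 (95% interval -0.42 to 0.06, limma adjusted p = 0.402), and IPF replicate 5 was again the highest of its group. Lrp6 was at 19.0, 17.5, 19.0, 19.5 and 20.2 FPKM in the IPF and 22.1, 18.3, 17.1, 19.3 and 20.6 FPKM in the sham samples, with full overlap (log2 fold change -0.03, 95% interval -0.19 to 0.13, limma adjusted p = 0.881).

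No secreted antagonist passed the test, of 6 tested. Dkk3, which unlike the other Dkk proteins does not clearly block Lrp5 and Lrp6, had the highest mean of all 42 genes. It was at 45.5, 66.0, 48.6, 56.5 and 52.7 FPKM in IPF replicates 1 to 5 and at 51.0, 44.4, 49.7, 44.1 and 44.9 FPKM in sham replicates 1 to 5. IPF replicates 2, 4 and 5 lay above all sham samples (log2 fold change 0.19, 95% interval -0.02 to 0.40, limma adjusted p = 0.299).
Sfrp1, which binds Wnt ligands outside the cell, was at 4.03, 4.69, 5.65, 5.02 and 3.50 FPKM in the IPF and 5.23, 5.41, 4.67, 5.21 and 4.60 FPKM in the sham samples (log2 fold change -0.15, 95% interval -0.41 to 0.11, limma adjusted p = 0.550). Sfrp2 was at 4.61, 6.66, 5.58, 6.12 and 4.41 FPKM in the IPF and 3.07, 4.87, 3.70, 2.73 and 5.63 FPKM in the sham samples. Its log2 fold change was 0.48, and the groups overlapped (95% interval 0.05 to 0.90, limma adjusted p = 0.201; two-sided exact permutation p = 0.0873).
Wif1 was at 1.50, 1.66, 1.72, 1.92 and 1.21 FPKM in the IPF and 1.05, 1.88, 1.98, 2.28 and 1.70 FPKM in the sham samples (log2 fold change -0.12, 95% interval -0.54 to 0.31, limma adjusted p = 0.796). Sfrp4 (0.192 against 0.162 FPKM) and Dkk2 (0.132 against 0.0846 FPKM) were low, with 0 to 29 reads per sample, and did not pass. The log2 fold change of Dkk2 depended on the scale, at 0.35 with a pseudocount of 0.1, 0.06 with 1, 0.92 with 0.01 and 1.04 with voom on the recovered reads (limma adjusted p between 0.432 and 0.655). Dkk2 lay just above the limit for testing with a mean of 0.109 FPKM over all samples, and Sfrp5 just below it with 0.0756 FPKM. Dkk1 and Dkk4, the classical inhibitors of the co-receptors, had at most 1 read in any sample.

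Axin2 encodes a scaffold of the complex that degrades β-catenin and is itself induced by β-catenin, so it is widely read as a marker of the pathway. It was at 14.6, 13.5, 10.2, 12.9 and 14.1 FPKM in IPF replicates 1 to 5 and at 13.2, 11.3, 9.82, 11.6 and 11.5 FPKM in sham replicates 1 to 5. In 3 of 5 IPF samples it lay above all sham samples, and IPF replicates 3 and 4 lay within the sham range (log2 fold change 0.18, 95% interval -0.04 to 0.41, limma adjusted p = 0.368; two-sided exact permutation p = 0.143). Lef1, a nuclear partner of β-catenin that T cells also express, was at 1.91, 1.15, 1.07, 1.35 and 1.61 FPKM in the IPF and 1.31, 1.34, 1.45, 1.20 and 1.28 FPKM in the sham samples. The IPF samples of Lef1 spread on either side of the sham range (log2 fold change 0.07, 95% interval -0.26 to 0.41, limma adjusted p = 0.847).

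**Figure D4:**
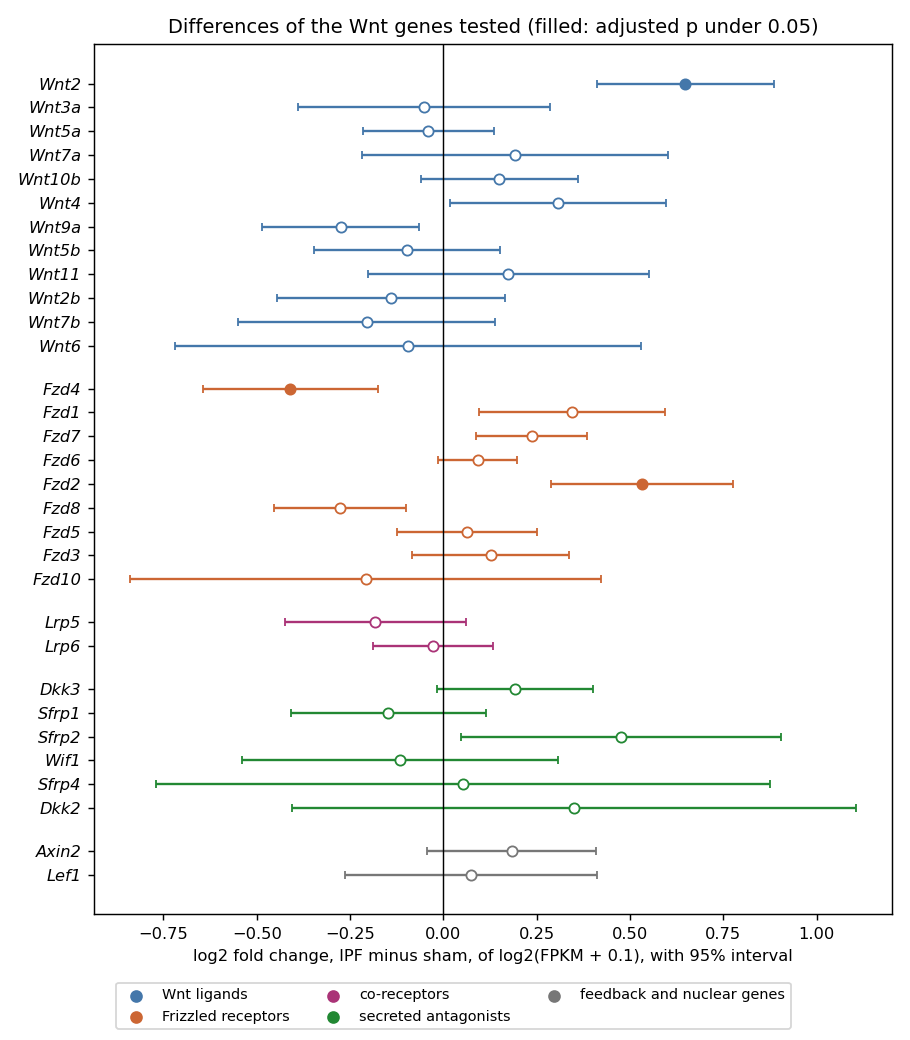
Log2 fold change, IPF minus sham, of log2(FPKM + 0.1) for the 31 Wnt genes tested, grouped by class in order of mean level, with the 95% interval from limma and filled points at an adjusted p under 0.05. Wnt2 (0.65) and Fzd2 (0.53) lie to the right and Fzd4 (-0.41) to the left, and no value passes an absolute log2 fold change of 1.

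Other genes of the pathway were followed on 7 lists with 76 genes in all, 72 of them tested. Of these, 3 rose and 2 fell (6.94%, beside 5.85% of all genes), and their median log2 fold change was 0.0013. On the list of 16 common targets of β-catenin, 15 were tested. Tnfrsf19 and Fgf18 rose and Nkd2 fell, with a median of 0.18. Tnfrsf19, a receptor of the TNF family, was at 25.3, 27.2, 23.0, 28.4 and 21.0 FPKM in IPF replicates 1 to 5 and at 15.0, 14.3, 14.5, 14.6 and 15.0 FPKM in sham replicates 1 to 5. The groups did not overlap (log2 fold change 0.76 with a standard error of 0.08, limma adjusted p = 0.000435).
Fgf18, a growth factor of alveolar development, was at 12.2, 8.19, 7.98, 9.20 and 9.86 FPKM in the IPF and 6.13, 6.72, 5.98, 5.26 and 7.79 FPKM in the sham samples, also without overlap (log2 fold change 0.56, limma adjusted p = 0.0272). Its adjusted p was 0.0534 without a variance trend and up to 0.0676 with 1 sample fewer, above 0.05 without IPF replicate 4 and without sham replicates 1, 3 or 4. Nkd2, which restrains Dishevelled, was at 4.48, 3.73, 3.56, 4.54 and 5.18 FPKM in the IPF and 6.44, 6.55, 7.10, 5.81 and 5.18 FPKM in the sham samples. IPF replicate 5 and sham replicate 5 met at the same level, and the 4 other IPF samples lay below all sham samples (log2 fold change -0.53, limma adjusted p = 0.0226). The adjusted p of Nkd2 reached 0.0605 with 1 sample fewer, above 0.05 without IPF replicate 2 and without sham replicates 2 or 3. Nkd1, of the same family, was at 49.7 against 57.3 FPKM (log2 fold change -0.21, limma adjusted p = 0.111), and Ccnd1 and Myc had log2 fold changes of -0.08 and 0.10.
Among 14 tested genes of receptors and polarity outside the β-catenin branch, Ror2 fell. Ror2 is a receptor tyrosine kinase for Wnt5a. It was at 1.34, 1.36, 1.31, 1.28 and 1.80 FPKM in the IPF and 2.00, 2.23, 2.38, 2.36 and 2.23 FPKM in the sham samples, without overlap (log2 fold change -0.63 with a standard error of 0.11, limma adjusted p = 0.00760). Of 13 TCF factors and nuclear cofactors, Tle3, a co-repressor, rose. It was at 8.13, 7.14, 7.45, 7.84 and 6.22 FPKM in the IPF and 6.36, 5.47, 5.12, 5.63 and 5.20 FPKM in the sham samples, with IPF replicate 5 below sham replicate 1 (log2 fold change 0.40, limma adjusted p = 0.0211). Its adjusted p was above 0.05 without IPF replicates 1 or 4 and without sham replicates 2, 3 or 5, and reached 0.0599. In the remaining lists no gene passed, of 3 for secretion of Wnt proteins, 8 for R-spondins with their receptors and ligases, 8 further antagonists, and 16 of the destruction complex with Dishevelled. Ctnnb1, which encodes β-catenin itself, was at 165 ± 10.5 against 148 ± 6.21 FPKM (SD over 5 mice each; log2 fold change 0.15, limma adjusted p = 0.202).

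Markers of the cell types that make and receive Wnt proteins were set beside these values. Of 8 markers of alveolar fibroblasts, Pdgfra rose (log2 fold change 0.35, limma adjusted p = 0.0212) and 0 fell, and their summed level was 1555 to 1907 FPKM in the IPF and 1206 to 1727 FPKM in the sham samples, with the low end set by sham replicate 1 (the other sham samples 1534 to 1727 FPKM). IPF replicate 5 held the highest sum of these fibroblast markers (1907 FPKM) and the lowest Fzd2 of its group. This was seen in 1 sample after the values were known, and a link was not tested. Of 9 markers of adventitial fibroblasts 0 were called, with sums of 498 to 624 and 417 to 585 FPKM. Of 8 endothelial markers, Cldn5 rose (log2 fold change 0.56, limma adjusted p = 0.0107) and 0 fell. Their sum was 1137 to 1315 FPKM in the IPF and 995 to 1058 FPKM in the sham samples. The median log2 fold change of the 8 endothelial markers was 0.20, and Fzd4 was lower in the IPF group. Within the IPF group the 5 samples had the same order for the endothelial sum and for Fzd4. Replicate 5 was at the top and replicate 2 at the bottom. The sham samples did not share an order, since sham replicate 1 held the lowest endothelial sum and the highest Fzd4 of all samples. These orders were compared after the values were seen, and a link between them was not tested.
Of 8 pericyte markers Cspg4 fell (log2 fold change -0.43, limma adjusted p = 0.0173), with sums of 270 to 327 and 278 to 309 FPKM, and of 8 smooth muscle markers 0 were called. Alveolar type 1 and type 2 cells had 0 of 8 markers called each. Of 10 T cell markers, which bear on Lef1, 3 rose, with sums of 36.2 to 42.2 FPKM in the IPF and 22.4 to 33.0 FPKM in the sham samples, and all 6 B cell markers rose. Marker sums of airway secretory cells were 4671 to 29480 FPKM in the IPF and 13676 to 25656 FPKM in the sham samples, and without IPF replicate 3 the highest IPF sum was 14590 FPKM. Among the lists of macrophages, neutrophils, ciliated airway cells, mesothelium, cartilage, cardiac and skeletal muscle, fat, thymus and proliferation 0 of the tested genes were called. Only 1 of 8 cartilage, 2 of 6 thymus, 4 of 6 fat, 4 of 6 skeletal muscle and 6 of 7 cardiac markers reached the level for testing, and cartilage markers summed to at most 0.977 FPKM. Of the clock genes 3 rose and 9 fell, all 5 sex-linked genes were called, and of 8 airway secretory genes Cbr2 fell. No list held a marker at 0 in every sample. The part of these cell types in the Wnt results was not tested.

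The RefSeq windows of 300 bases, from 250 before to 50 after a gene start, were found for 28 of the 42 genes, 34 windows in all. The TCF/LEF core CTTTGA, read on both strands, lay in 5 of the 34 windows (Dkk1, Fzd1, Lef1, Wnt11 and Wnt5b), while 16.0% of all 32851 windows hold it. The E-box CACGTG, the motif bound by clock factors, lay in 4 of the 34 (Fzd9, Lef1, Wif1 and Wnt9a), beside 7.15% of all windows. A match describes the letters only. Of the called genes with a window, Wnt2 and Fzd4, neither held either motif.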

How the data were processed

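Whole-lung mRNA of 5 IPF and 5 sham mice was analysed. By the methods of the study, the authors used Fastp for trimming, HISAT2 for alignment and StringTie for quantification, and the deposited table holds an FPKM value for each gene and sample. The methods name GRCm39, while positions in the table follow GRCm38, in which chromosome 1 has its last gene end at 195323493. Whether counting used strand is not given in the sources used here. FPKM multiplied by gene length is proportional to reads. The library size of each sample was solved from the step between low values, after which 100% of values were whole reads (tolerance 0.01 reads), with 15483046 to 19026843 reads on genes per sample.

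Genes with a mean of at least 0.1 FPKM were tested in R 4.3.3 with limma 3.58.1 (variance trend, no covariate) as IPF minus sham of log2(FPKM + 0.1), adjusted over 20448 genes by the Benjamini-Hochberg method. Fold changes on this scale understate those of low genes. Permutation tests were exact and two-sided. The floor of 3 reads covers counting error only. Data were also simulated with these depths and a dispersion of 0.03. Of 50 genes with a log2 change of -1, 39 were called, and of 50 with a change of 1, 47. There were 11 false calls among 20437 genes. The changed genes were drawn from those with a mean of at least 1 FPKM. Recovery of smaller changes, such as those of the Wnt genes, or of lower genes was not simulated.

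The genes and lists were chosen with earlier results of these data known. Values in every sample are given for Wnt genes and listed pathway genes with an adjusted p under 0.05, for the 3 with the highest mean in each class (Frizzled receptors with Lrp5 and Lrp6), and for Axin2, Lef1, Lrp5, Lrp6 and Wif1, and other tested members by group means or log2 fold change; Nkd1, Ccnd1, Myc and Ctnnb1 were named after their values were seen. Marker lists covered leukocytes, epithelium, mesenchyme, endothelium, cartilage, muscle, fat, thymus, proliferation, the clock and sex-linked genes. The alternatives were a pseudocount of 1 or 0.01, a minimum of 1 FPKM or none, median-of-ratios and quantile scaling, no trend, array weights, limma voom on recovered reads, the replicate number as a block, and leaving out each sample. Pairs of samples within a group differed by more than sampling noise (chi-square per degree of freedom 4.49 to 34.3).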

Additional observations from a re-analysis of the deposited data

Results flagged for a closer look

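Of 62 groups of 5 samples examined (31 Wnt genes in each group), 1 held a sample far from the others. Chance gives about 1 in 20 groups at this limit, so 1 of 62 is no more than chance gives. IPF replicate 5 was at 47.8 FPKM of Fzd4, while IPF replicates 1 to 4 ranged from 32.4 to 36.2 FPKM. The gap to its nearest neighbour was 0.714 of the whole range on the log2 scale, above the limit of 0.710 for 5 samples.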

How the results depend on the processing

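Wnt2 kept its direction and an adjusted p under 0.05 in limma in every alternative run, from 0.00231 to 0.0307 over the 10 that kept all samples, and Fzd2 in all but 1 of them. The samples share replicate numbers, but same-numbered samples correlated by only -0.0204 to 0.0953 in their deviations from the group means, and 3 of 5 IPF samples correlated best with their own number. With the replicate number as a block, 2 genes were called higher and 0 lower, and limma gave 0.0757 for Fzd2, 0.0615 for Fzd4, 0.0851 for Nkd2 and 0.0389 for Fzd7. The count of genes called lower was also 0 without a filter on low values and without a variance trend, and 2 with a minimum of 1 FPKM and with array weights. With array weights 6 genes were called, 4 of them higher. The called pathway genes numbered 9 with array weights and with voom. The share of all genes called was taken for the main fit only. Whether these counts moved with the rest of the genes was therefore not tested. The median of the Wnt genes was 0.0103 without a filter, where more low genes were tested. With 1 sample fewer, between 2 and 5 genes were called, 2 to 3 higher and 0 to 2 lower, the pathway count lay between 2 (without sham replicate 3) and 10 (without IPF replicate 5), and the median between 0.02 and 0.11. Without IPF replicate 5 and sham replicate 1 together, chosen after seeing the data, 4 genes were called, 2 of them lower, with 9 pathway genes, and the adjusted p of Fgf18 was 0.0770. Directions turned for genes near 0 only: with array weights Wnt5a was at 0.0088 and Lrp6 at 0.0054. Leaving out 1 sample gave ranges of -0.14 to 0.0780 for Wnt3a, -0.0876 to 0.0155 for Wnt5a, -0.20 to 0.0565 for Wnt6, -0.0728 to 0.0189 for Lrp6, -0.0350 to 0.16 for Lef1 and -0.16 to 0.21 for Sfrp4. The cause of these changes was not tested. Depth limits the genes under 0.1 FPKM, whose values rest on at most 13 reads per sample.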

Other observations

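Further genes of the pathway lists were named after their values were seen. With all samples Rspo2 and Notum lay near the limit of the test, while Wisp1 did not. Rspo2, an R-spondin that protects Frizzled receptors from turnover, was at 0.322, 0.364, 0.300, 0.397 and 0.287 FPKM in IPF replicates 1 to 5 and at 0.0475, 0.240, 0.0975, 0.129 and 0.154 FPKM in sham replicates 1 to 5. The groups did not overlap, and limma gave an adjusted p of 0.0582 (log2 fold change 0.94, 4 to 37 reads per sample). Notum, a secreted enzyme that removes the lipid from Wnt proteins and is itself a target of the pathway, was at 3.85 ± 0.765 against 2.60 ± 0.458 FPKM (SD over 5 mice each; log2 fold change 0.54, limma adjusted p = 0.0511). Wisp1, a matricellular target, was at 5.02, 5.85, 5.67, 6.42 and 2.29 FPKM in IPF replicates 1 to 5 and between 2.79 and 3.70 FPKM in the sham samples. IPF replicate 5 was the lowest of all 10 samples for Wisp1. With all samples limma gave it an adjusted p of 0.169, and without IPF replicate 5 the adjusted p was 0.000749.

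The partners of Fzd4 in Norrin signaling were looked up after the values of Fzd4 were seen. Ndp, which encodes Norrin, had 0 to 7 reads per sample and was not tested. Tspan12, which helps Fzd4 to signal, was at 34.5 ± 3.11 FPKM in the IPF and 32.2 ± 2.27 FPKM in the sham group (SD over 5 mice each; log2 fold change 0.10, 95% interval -0.06 to 0.26, limma adjusted p = 0.502).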
